A study of Mus musculus with 22 samples.

Results

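A set of 9 surface receptors that guide natural killer (NK) cells between blood, lymphoid organs and tissues was followed across the series. They were chosen by name: the sphingosine-1-phosphate receptors S1pr1 and S1pr5, the chemokine receptors Cx3cr1, Ccr7 and Cxcr4, the maturation marker Cd27 and the integrin alpha chains Itgam, Itga1 and Itga2. All 9 were found by symbol among the 78298 genes of the count tables. The NK cells came from spleens of female and male mice, were described as positively sorted, and were sequenced in 3 conditions with 2 libraries per sex in each. In co-culture they shared the dish with Panc02 cells, a mouse pancreatic cancer line, and received interleukin-2 (IL-2, a cytokine on which cultured NK cells depend) for 24 h. In monoculture they received IL-2 for 24 h by themselves. Fresh cells had no treatment. Panc02 tumours grown as allografts in 4 female and 4 male mice, and 2 libraries of Panc02 cells cultured alone, served as background. Strain, age, the marker used for the sort and any separation of the co-cultured cells were not given in the sources used here. Nor was it stated that each sample number is a separate animal, so p-values measure only the spread between these samples, which may be technical.

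NK cells leave the bone marrow, circulate and settle in tissues by switching such receptors on and off. S1pr1 and S1pr5 sense a lipid that is abundant in blood and lymph and draw cells out of organs. In mice, S1pr5 is needed for NK cells to leave the marrow and lymph nodes. Cxcr4 holds cells in the marrow, Ccr7 leads them into lymph nodes and Cx3cr1 appears on mature circulating cells. Mouse NK cells gain CD11b, encoded by Itgam, and later lose CD27 as they mature. CD49b, encoded by Itga2, marks circulating NK cells, and CD49a, encoded by Itga1, marks cells resident in liver and other tissues.

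The libraries bore out the NK label. The summed level of 10 NK markers was 11976 to 13411 CPM (counts of a gene relative to all gene counts in the library, put on a common scale) in monoculture and 11766 to 12504 CPM in fresh cells, with no marker at 0, and at most 0.142 CPM in cultured Panc02. In co-culture, where a library also holds RNA of Panc02, the sum was 274 to 566 CPM. Total counts per library were 34357879 to 46799030 in co-culture, 14624113 to 46170885 in monoculture and 13025549 to 37201687 in fresh cells. They were 26140269 to 42078638 in allografts and 42123781 to 46842646 in cultured Panc02. Fresh libraries held more transcripts of other blood cells. Summed dendritic cell markers stood at 10.0 to 14.4 CPM in monoculture and at 88.2 to 114 CPM in fresh cells, with 2 and 1 of the 8 markers at 0 throughout. The 6 platelet markers summed to 34.1 to 77.6 CPM in monoculture and 252 to 466 CPM in fresh cells, with none at 0. The 6 erythroid markers summed to 71.1 to 133 CPM in monoculture and 376 to 662 CPM in fresh cells, with none at 0. RNA of fresh cells was taken on oligo(dT) beads and that of cultured cells with TriZOL, so culture and extraction cannot be told apart.

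The files place the members on the mouse build GRCm39. S1pr5 (chromosome 9, 21154208 to 21159739) and Cx3cr1 (chromosome 9, 119877749 to 119898945) share a chromosome but lie 98718009 bases apart. Itga2 (chromosome 13, 114969617 to 115068636) and Itga1 (chromosome 13, 115089632 to 115238500) are neighbours, 20995 bases apart on the minus strand. S1pr1 lies on chromosome 3 (115504082 to 115508721), Ccr7 on chromosome 11 (99035022 to 99045903), Cxcr4 on chromosome 1 (128515936 to 128520030) and Cd27 on chromosome 6 (125209585 to 125213973). Itgam (chromosome 7, 127661812 to 127717663) shares 3450 of its 5024 exon bases with the gene Gm49368 on the same strand. The counting command lists no option that assigns a read to 2 genes, and Gm49368 itself had at most 1.31 CPM in any library. Levels of Itgam per exon length may therefore be too low, while its comparisons between libraries use the same bases throughout. Cd27 shares 129 bases with Mir8113 and Itga1 shares 685 of 18599 with Gm49395 on the same strand.

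RefSeq lists a promoter window on the build GRCm38.p6, from 250 bases before to 50 bases after the start of transcription, for 7 of the members. The windows of S1pr5 (chr9:21248394-21248693, minus strand), Cx3cr1 (chr9:120068247-120068546, minus strand) and Itga1 (chr13:115101915-115102214, minus strand) are shown here, since these genes carried the largest culture changes of the S1P receptors, chemokine receptors and integrins described below. They read 5′ to 3′ along the gene, and capitals mark the p53 half-site match.
S1pr5: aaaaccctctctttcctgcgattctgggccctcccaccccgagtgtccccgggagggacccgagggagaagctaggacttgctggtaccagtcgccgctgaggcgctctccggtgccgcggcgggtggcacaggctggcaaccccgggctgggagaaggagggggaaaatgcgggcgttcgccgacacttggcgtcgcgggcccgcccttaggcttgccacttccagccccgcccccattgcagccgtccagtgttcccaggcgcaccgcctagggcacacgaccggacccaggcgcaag
Cx3cr1: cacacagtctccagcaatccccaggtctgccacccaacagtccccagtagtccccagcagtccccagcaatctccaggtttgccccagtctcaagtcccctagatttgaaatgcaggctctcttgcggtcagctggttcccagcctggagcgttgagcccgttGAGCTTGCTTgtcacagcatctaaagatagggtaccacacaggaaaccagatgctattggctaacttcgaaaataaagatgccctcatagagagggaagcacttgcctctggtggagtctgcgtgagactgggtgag
Itga1: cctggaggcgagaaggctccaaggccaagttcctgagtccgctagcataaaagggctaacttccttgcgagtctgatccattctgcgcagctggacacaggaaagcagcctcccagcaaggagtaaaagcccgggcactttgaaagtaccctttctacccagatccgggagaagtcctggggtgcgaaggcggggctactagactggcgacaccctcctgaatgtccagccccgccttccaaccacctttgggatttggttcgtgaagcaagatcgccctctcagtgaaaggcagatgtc
Both strands were searched for a T-box motif (AGGTGTGA), a KLF motif (CCACACCC), a FOXO motif (GTAAACA), a STAT motif (TTCNNNGAA) and the p53 half-site. The STAT and p53 motifs were chosen after the values were seen. The p53 half-site of Cx3cr1, which begins 87 bases before the start, was the only match in the 7 member windows. Among 32851 promoter windows 1.28% held the T-box motif, 3.56% the KLF, 3.65% the FOXO, 8.30% the STAT and 8.36% the p53 motif, and no motif overlapped another in the members. The S1pr5 window had 27 CpG pairs and 69.3% G and C, the Itga1 window 12 and 56.7% and the Cx3cr1 window 5 and 54.3%, against medians of 7 and 52.7% over all windows.

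Per exon length, and with Itgam left aside for its shared bases, S1pr5 was the most abundant receptor of fresh NK cells and Itga1 the least. In TPM, which are counts per exon base scaled to the same sum in each library, S1pr5 stood at 476 ± 55.1 TPM (SD, n = 4) in fresh cells. Cxcr4 followed at 284 ± 64.2, Itga2 at 124 ± 5.48 and Cd27 at 104 ± 7.64 TPM. Ccr7 at 52.9 ± 9.11, S1pr1 at 52.3 ± 4.46 and Cx3cr1 at 47.3 ± 7.46 TPM formed a lower group of like levels, and Itga1 was at 0.781 ± 0.150 TPM. After culture the order of these 8 was another one. Itga2 led at 142 ± 13.8 TPM in monoculture, before S1pr5 at 110.4 ± 9.87, Cxcr4 at 100.5 ± 17.7 and Cd27 at 95.9 ± 3.44 TPM. S1pr1 stood at 79.1 ± 14.0 TPM. Itga1 stood at 13 ± 2.61 TPM, above Ccr7 at 7.33 ± 2.26 and Cx3cr1 at 2.02 ± 0.779 TPM. Over its full length Itgam was at 76.8 ± 11.3 TPM in monoculture and 108 ± 8.59 TPM in fresh cells. Over unshared bases alone it was 1.91 to 2.82 times Cd27 in monoculture and 2.86 to 3.38 times Cd27 in fresh cells, so its place among the receptors depends on the length used.

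**Figure D1:**
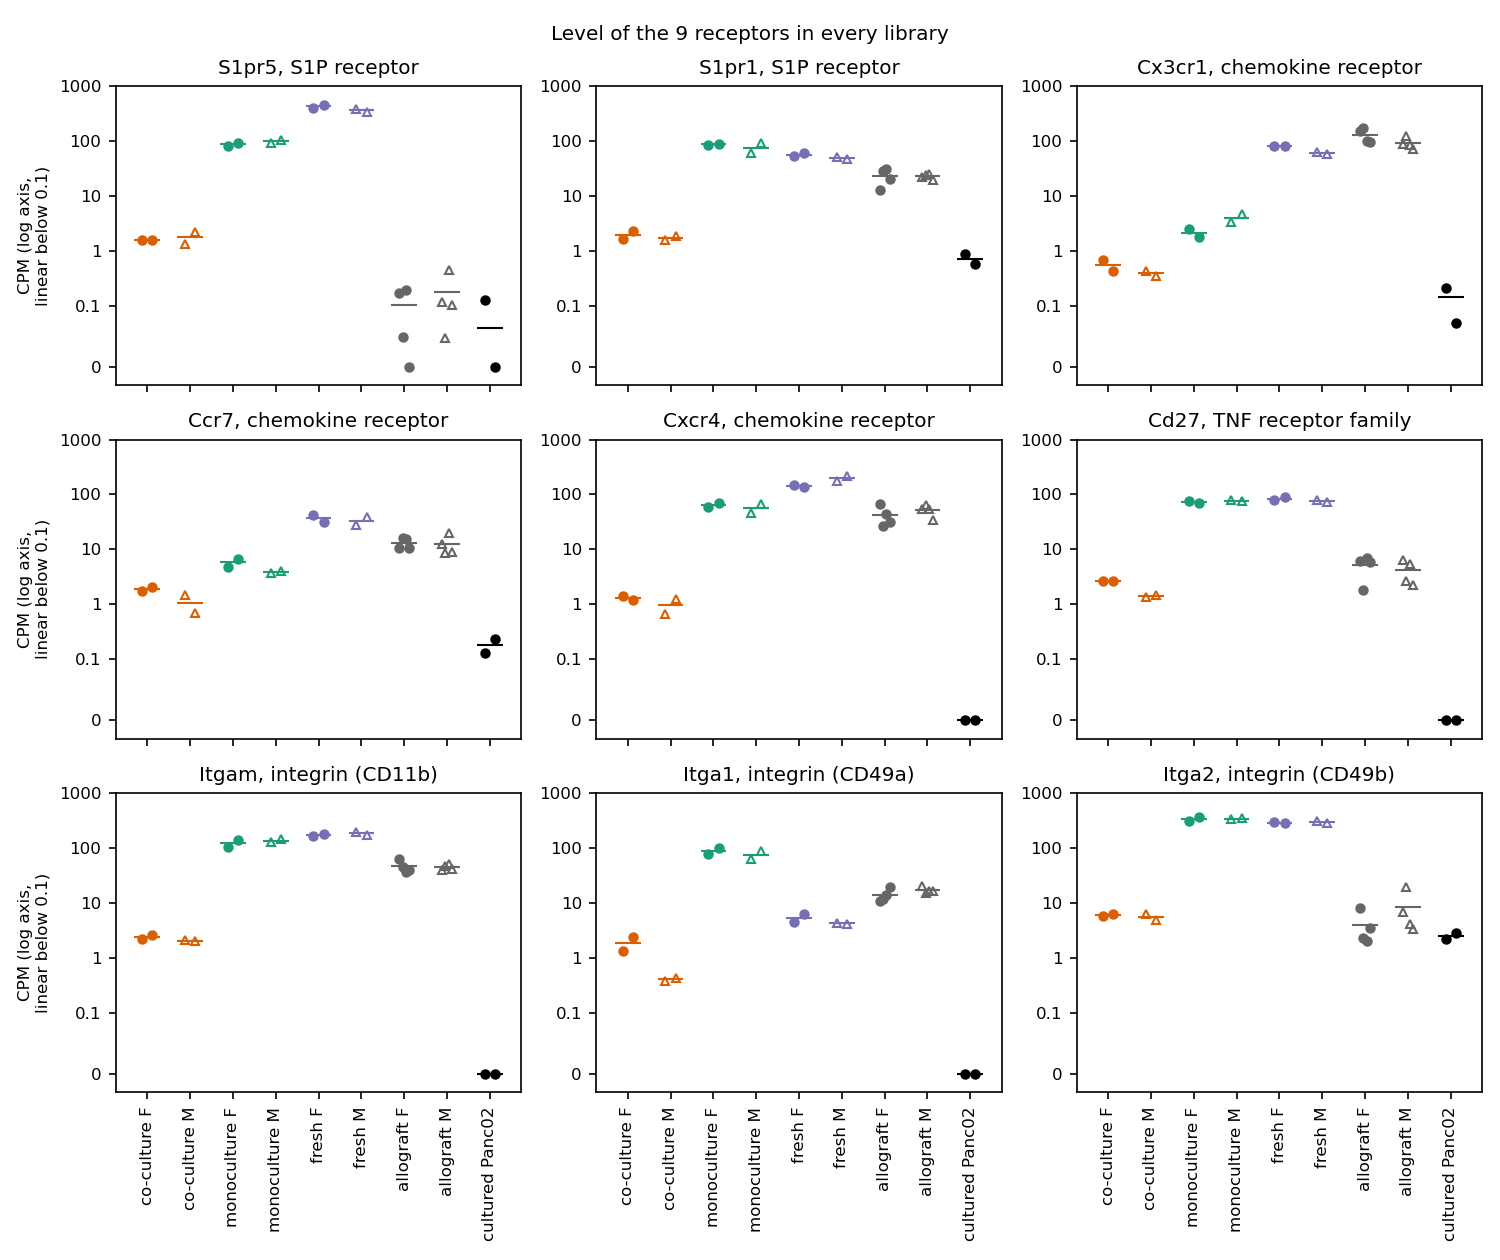
Level of each receptor in every library, in CPM on a log axis that is linear below 0.1. Filled circles are female, open triangles male, black circles Panc02 cells cultured alone, and bars are group means. Cx3cr1, Ccr7 and S1pr5 sit lower in monoculture than in fresh cells and Itga1 sits higher, and the co-culture points of all 9 are low in libraries that also hold Panc02 RNA.

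Culture with IL-2 for 24 h left 8 of the 9 receptors changed against fresh cells. By direction, S1pr5, Cx3cr1, Ccr7, Cxcr4 and Itgam fell, Itga1, S1pr1 and Itga2 rose, and Cd27 did not pass the test. Over all genes the share called at an adjusted p under 0.05 was 43.2% of 21414, with 4742 higher and 4513 lower in monoculture. The median log2 change was -0.37 over the 9 receptors and 0.01 over all genes.

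The S1P receptors moved in opposite directions. S1pr5 was at 82.6 and 90.6 CPM in female and 93.4 and 104 CPM in male monoculture, against 401 and 458 CPM in female and 388 and 335 CPM in male fresh cells. Every monoculture library was below every fresh one. S1pr5 fell 3.96-fold, by 1.99 ± 0.09 on the log2 scale (SE, edgeR quasi-likelihood test, adjusted p = 2.05e-10). S1pr1 was at 84.1 and 88.6 CPM in female and 60.1 and 90.3 CPM in male monoculture, against 52.8 and 60.0 CPM in female and 51.3 and 47.6 CPM in male fresh cells. The ranges came close, with the lowest monoculture library at 60.1 CPM and the highest fresh one at 60.0 CPM. S1pr1 rose 1.64-fold (log2 0.72 ± 0.12, edgeR, adjusted p = 0.000186). As a ratio of counts per exon length within a library, S1pr5 over S1pr1 was 1.20 to 1.89 in monoculture and 8.56 to 9.30 in fresh cells, and 0.862 to 1.48 in co-culture.

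All 3 chemokine receptors fell. Cx3cr1, the fractalkine receptor, was at 2.46 and 1.80 CPM in female and 3.34 and 4.64 CPM in male monoculture, against 81.6 and 80.8 CPM in female and 62.9 and 57.7 CPM in male fresh cells. It was 22.9-fold lower in monoculture (log2 -4.51 ± 0.13, edgeR, adjusted p = 8.98e-14). This was the largest fold change of the 9 receptors. Ccr7, the receptor for the lymph node chemokines CCL19 and CCL21, was at 4.79 and 6.78 CPM in female and 3.66 and 4.12 CPM in male monoculture, against 41.6 and 31.5 CPM in female and 28.0 and 38.1 CPM in male fresh cells. It was 6.77-fold lower (log2 -2.76 ± 0.19, edgeR, adjusted p = 7.11e-09). Neither gene had a monoculture library near the fresh range. Cxcr4, the CXCL12 receptor, was at 60.0 and 69.1 CPM in female and 46.7 and 67.6 CPM in male monoculture, against 148 and 137 CPM in female and 176 and 218 CPM in male fresh cells. It was 2.57-fold lower (log2 -1.36 ± 0.14, edgeR, adjusted p = 1.6e-05). Dendritic, B and T cells also carry Ccr7, dendritic cells and monocytes carry Cx3cr1, and neutrophils carry Cxcr4. Summed dendritic cell markers were lower in monoculture too, as given above, and monocyte and macrophage markers other than Ccr2 summed to 7.80 to 48.8 CPM in monoculture and 28.3 to 82.1 CPM in fresh cells. The 7 B cell markers summed to 1.33 to 5.41 CPM in monoculture and 11 to 22.3 CPM in fresh cells, with none at 0 throughout, and 6 of them fell. The 8 T cell markers summed to 3.44 to 8.48 CPM in monoculture, with 1 at 0 throughout, and 9.09 to 20.4 CPM in fresh cells. The 8 neutrophil markers summed to 12.3 to 199 CPM in monoculture and 18.1 to 314 CPM in fresh cells, with none at 0 throughout. The part of these cells in the changes of Ccr7, Cx3cr1 and Cxcr4 was not tested. Of the monocyte and macrophage markers other than Ccr2, Csf1r was at most 1.1 CPM and Adgre1 at most 0.461 CPM in fresh cells. The rest of the sum of 28.3 to 82.1 CPM there came from the others. With Ccr2, which itself rose in monoculture, the sum of all 10 markers ran the other way. Every monoculture library then lay above the fresh range of 379.8 to 405 CPM. Fewer cells of a type and less RNA per cell cannot be told apart in these bulk libraries.

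The integrins diverged. Itga1 was at 76.9 and 98.0 CPM in female and 62.7 and 87.1 CPM in male monoculture, against 4.47 and 6.30 CPM in female and 4.4 and 4.14 CPM in male fresh cells. It rose 18.5-fold (log2 4.21 ± 0.18, edgeR, adjusted p = 5e-10), and no library lay between the conditions. Its neighbour Itga2 was at 304 and 368 CPM in female and 336 and 347 CPM in male monoculture, against 294 and 286 CPM in female and 307 and 289.6 CPM in male fresh cells. The conditions overlapped for Itga2. It rose 1.24-fold (log2 0.31 ± 0.07, edgeR, adjusted p = 0.00133), a call that ended without monoculture female 2 (log2 0.16, adjusted p = 0.0664). Platelets carry CD49b as well, and summed platelet markers were lower in monoculture, as given above. Their part in the Itga2 values was not tested. Itgam was at 104 and 139.5 CPM in female and 127 and 146 CPM in male monoculture, against 166 and 181 CPM in female and 195 and 175 CPM in male fresh cells. It fell 1.29-fold (log2 -0.37 ± 0.08, edgeR, adjusted p = 0.00253), with every monoculture library below every fresh one.

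Cd27, a costimulatory receptor of the TNF receptor family, was the one receptor not called. It was at 76.2 and 69.1 CPM in female and 78.1 and 76.2 CPM in male monoculture, against 78.7 and 88.4 CPM in female and 80.8 and 72.5 CPM in male fresh cells. The conditions overlapped, and the log2 difference was 0.01 ± 0.07 (edgeR, adjusted p = 0.984). Counts of Itgam over Cd27 per exon length were 0.635 to 0.936 in monoculture and 0.948 to 1.12 in fresh cells, without overlap. With the same counts divided by the exon bases that no other gene shares, the ratio was 1.91 to 2.82 in monoculture and 2.86 to 3.38 in fresh cells. This changes every library by the same factor and is not a separate count.

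**Figure D2:**
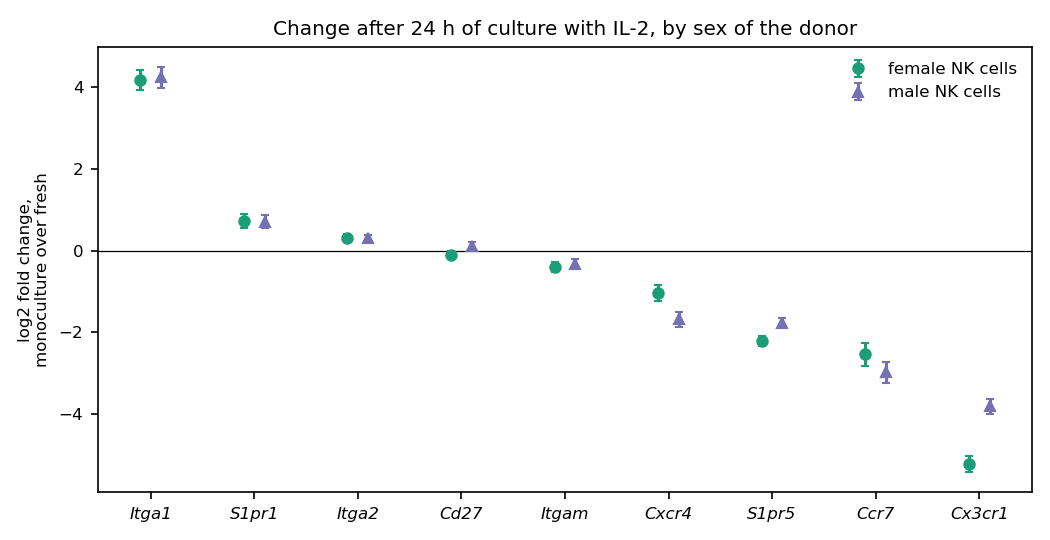
Log2 fold change of the 9 receptors in monoculture over fresh cells, for female (circles) and male (triangles) NK cells, with bars for 1 SE from the fit of 12 libraries. Itga1 stands highest and Cx3cr1 lowest, and Cx3cr1 is the gene whose female and male values lie farthest apart.

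Sex of the donor was compared within each condition. In fresh cells edgeR called none of the 9 receptors between female and male cells, where it called 10.0% of all genes. Of the 9, 2 had an unadjusted p under 0.05, where 5105 of 21414 genes did. DESeq2 called 1 of the 9, Cxcr4, and 2975 of 14769 genes. Cx3cr1 was at 81.6 and 80.8 CPM in female and 62.9 and 57.7 CPM in male fresh cells (log2 0.41 ± 0.15, edgeR, adjusted p = 0.0993). Cxcr4 was at 148 and 137 CPM in female and 176 and 218 CPM in male fresh cells (log2 -0.48 ± 0.19, edgeR, adjusted p = 0.148). It passed the threshold by DESeq2 (adjusted p = 0.0263), without the filter on low counts (1.11e-05) and without monoculture male 4 or 5 (0.037 and 0.0351). Neutrophil markers summed to 18.1 and 45.6 CPM in female and 117 and 314 CPM in male fresh cells, where 2 of 8 were called lower in female cells, and their part in the Cxcr4 values was not tested. S1pr5 was at 401 and 458 CPM in female and 388 and 335 CPM in male fresh cells (log2 0.23 ± 0.12, edgeR, adjusted p = 0.256). For S1pr1 (log2 0.17 ± 0.17) and Itga1 (log2 0.26 ± 0.27) the edgeR adjusted p was 0.616 and 0.641.

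In monoculture edgeR called 0.107% of all genes between the sexes and none of the 9 receptors. Of the 9, Cx3cr1 alone had an unadjusted p under 0.05, where 1468 of 21414 genes did. Cx3cr1 was at 2.46 and 1.80 CPM in female and 3.34 and 4.64 CPM in male monoculture, from 36, 65, 154 and 198 reads (log2 -0.99 ± 0.22, edgeR, adjusted p = 0.129). DESeq2 called it (adjusted p = 0.0207), as did the fits with no filter (0.000678) and without monoculture male 4 (0.0228). The other 8 receptors had adjusted p values of 0.728 or more.

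The effect of culture on Cx3cr1 itself differed between the sexes. Cx3cr1 was 37.2-fold lower in monoculture than in fresh female cells (log2 -5.22 ± 0.20) and 14-fold lower than in fresh male cells (log2 -3.81 ± 0.18). The female minus male difference was -1.41 ± 0.26 on the log2 scale (edgeR interaction term, adjusted p = 0.0119), where 2.55% of all genes were called. Both female values were above both male values in fresh cells and below them in monoculture. Without monoculture female 2 the difference was -1.13 and the call was lost (adjusted p = 0.0779). Of the other 8 receptors none was called. Cxcr4 fell by 1.04 ± 0.19 in female and by 1.68 ± 0.19 in male cells on the log2 scale (difference 0.63 ± 0.27, edgeR, adjusted p = 0.272). That difference passed without the filter on low counts (adjusted p = 0.00268). Markers of monocytes and macrophages other than Ccr2 ran lower in female libraries in both conditions, while Cx3cr1 was lower in female cells in monoculture only. They summed to 7.80 and 13.7 CPM in female and 15.6 and 48.8 CPM in male monoculture, and to 28.3 and 34.9 CPM in female and 41.9 and 82.1 CPM in male fresh cells. Their part in the Cx3cr1 values was not tested.

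Among the other homing receptors, integrins, regulators and surface markers, Eomes had the smallest p between the sexes in fresh cells. It was at 812 and 967 CPM in female and 848 and 923 CPM in male monoculture, and at 543 and 559 CPM in female and 411 and 385 CPM in male fresh cells. It was higher in female than in male fresh cells (log2 0.45 ± 0.08, edgeR, adjusted p = 0.00325), and its culture effect was smaller in female cells (difference -0.47 ± 0.12, adjusted p = 0.0426). Of the 11 other homing receptors 1 was higher (S1pr4, 0.41 ± 0.11) and 2 were lower in female fresh cells, among them Ccr1 (-4.08 ± 1.21), a receptor that neutrophils and monocytes also carry. The part of the neutrophil markers given above in the Ccr1 values was not tested. Of the 11 surface markers 3 were higher, among them Spn (0.37 ± 0.08), and 3 lower, among them Cd44 (-0.31 ± 0.07). Over all genes the share called between the sexes in fresh cells was 10.0%.

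Partner chains, regulators and further receptors were read from lists of related genes. Among 12 other integrin genes 3 rose and 8 fell in monoculture against fresh cells, where 43.2% of all genes were called. Itgb1, the beta chain that pairs with Itga1 and Itga2, rose by 0.93 ± 0.05 on the log2 scale, with 1302 to 1476 CPM in monoculture and 743 to 847 CPM in fresh cells. Itgb2, the beta chain of Itgam and Itgal, fell by 0.99 ± 0.06, with 636 to 725 CPM in monoculture and 1381 to 1536 CPM in fresh cells. Itgal, the alpha chain of LFA-1, fell by 0.20 ± 0.07. Itga4, which pairs with Itgb1 to bind VCAM-1, fell by 1.47 ± 0.07, unlike Itgb1.

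Among 13 regulators of egress and maturation 6 rose and 3 fell, where 43.2% of all genes were called. Tbx21, which encodes T-bet and drives late NK maturation and S1pr5 in mice, fell by 1.30 ± 0.06 on the log2 scale. Zeb2, which acts with T-bet, fell by 0.90 ± 0.06, and Klf2, which drives S1pr1 in lymphocytes, fell by 1.28 ± 0.09. Klf2 was at 187 to 236 CPM in monoculture and 488 to 619 CPM in fresh cells, while S1pr1 rose. Eomes, a transcription factor of NK identity, rose by 1.03 ± 0.06, Id2 by 1.76 ± 0.08 and Nfil3, needed for NK development, by 1.78 ± 0.07. Foxo1 (0.02, adjusted p = 0.883), Tcf7 (-0.04, adjusted p = 0.726) and Prdm1 (-0.08, adjusted p = 0.494) did not pass the test.

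Of 11 other homing receptors 4 rose and 4 fell in monoculture, where 43.2% of all genes were called. The chemerin receptor Cmklr1 fell by 1.44 ± 0.09 on the log2 scale. The inflammatory chemokine receptor Ccr2 rose by 1.43 ± 0.11. Cxcr6, a receptor of liver-resident NK cells in mice, rose by 1.68 ± 0.29 and Cxcr3 by 0.43 ± 0.11. Of 11 surface markers 3 rose and 7 fell. Cd69, which binds S1PR1 protein and takes it off the cell surface, was at 122 and 111 CPM in female and 161 and 116 CPM in male monoculture, against 17.4 and 14.0 CPM in female and 18.0 and 21.3 CPM in male fresh cells. It rose by 2.93 ± 0.21 (edgeR, adjusted p = 7.19e-06) beside the rise of S1pr1 transcript. The late maturation marker Klrg1 fell by 2.92 ± 0.09, Spn by 0.86 ± 0.06, Il7r by 2.12 ± 0.16 and Cd44 by 0.57 ± 0.05.

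Of 9 genes that signal from or take in such receptors 5 rose and 2 fell, where 43.2% of all genes were called. Traf5, an adaptor that CD27 binds, rose by 0.93 ± 0.09 on the log2 scale, and the G protein regulators Rgs1 and Rgs2 rose 2.83-fold and 2.09-fold. Arrb1, which encodes beta-arrestin 1, fell by 1.01 ± 0.10. Among 13 ligand genes, of which 8 passed the filter on low counts, 0 rose and 4 fell. The sphingosine kinase gene Sphk1 was at 0 to 0.108 CPM in monoculture and 44.9 to 59.6 CPM in fresh cells (log2 -9.18 ± 0.21, edgeR, adjusted p = 4.9e-15). Erythroid and platelet markers were also lower in monoculture, as given above, and the part of such cells in the Sphk1 values was not tested. Icam1, a ligand of LFA-1 and of CD11b with CD18, fell by 0.42 ± 0.08.

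The genes whose pattern lay nearest to each receptor were sought over the 8 fresh and monoculture libraries among 10963 genes with a mean of at least 5 CPM. The measure was the root mean square difference of centred log2 values. For S1pr5 they were Rgs12 (0.069), 4833407H14Rik (0.088) and Hes1 (0.115). For Cx3cr1 they were Wdfy4, Plvap and Gata2 (0.288 to 0.315), which lay farther off than the nearest genes of any other receptor. For Ccr7 they were Thra, Treml2 and Lrp5 and for Cxcr4 Tent5c, Specc1 and Sox12. For Itga1 they were Trp53cor1 (0.243), Cdkn1a (0.263) and Angptl6 (0.270), and for S1pr1 Ndnf, H6pd and Kctd11. Itga2 lay nearest to Ccdc186, Hmces and Mysm1, Itgam to Pigw, Ints10 and Rpgrip1l, and Cd27 to Psmc4, Rps12-ps4 and Actr10.

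Across all groups the receptors fell into a few orders of level. S1pr5, Ccr7, Cxcr4 and Itgam were highest in fresh cells, and for S1pr5 each step from fresh female (429 CPM) through fresh male (361), male monoculture (98.6) and female monoculture (86.6) was without overlap. S1pr1, Itga1 and Itga2 were highest in monoculture, where the sexes overlapped for each. Cx3cr1 was highest in allografts, at a mean of 130.2 CPM in female and 91.1 CPM in male hosts, of which the male range overlapped that of female fresh cells. For Ccr7 and Itga1 the allografts stood between the NK conditions without overlap, at 13.2 CPM in female and 12.5 CPM in male hosts for Ccr7 and 13.9 and 17 CPM for Itga1. For Cxcr4 the allografts overlapped monoculture. Cd27 had overlapping levels in male monoculture (77.1 CPM), male fresh cells (76.6) and female monoculture (72.7), and female fresh cells (83.6) overlapped male fresh cells alone. Cultured Panc02 had the lowest mean of every receptor.

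Co-culture libraries mix the RNA of both cell types, so the receptors were compared within genes that cultured Panc02 lacks. These NK-restricted genes had at least 5 CPM on average in monoculture and at most 0.1% of that in either cultured Panc02 library, which left 550 genes and 4 of the 9 receptors: Itga1, Itgam, Cxcr4 and Cd27. All 4 had 0 counts in both cultured Panc02 libraries, which allows up to 0.0337 CPM (3 counts over the group, counting error only). The median of the 550 genes in co-culture was 2.78% and 3.4% of the monoculture level in the female co-cultures and 2.07% and 1.77% of it in the male ones. That median estimates the share of NK RNA only if the typical gene of the 550 kept its level within NK RNA in co-culture, which was not tested. Monoculture both set the level limit and served as the reference of the comparison. Genes low in monoculture could not enter and so could not be seen to rise, among them Cx3cr1 (3.06 CPM) and Ccr7 (4.84 CPM). Itga1 entered at a mean of 81.2 CPM in monoculture, where fresh cells had 4.83 CPM.

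Within this set Itga1 and Itgam fell in co-culture against monoculture, where 42.9% of the 550 genes were called. Itga1 was at 1.36 and 2.37 CPM in female and 0.378 and 0.438 CPM in male co-culture, from 61, 111, 13 and 20 reads, against 76.9 and 98.0 CPM in female and 62.7 and 87.1 CPM in male monoculture. These levels carry the dilution by Panc02 RNA. Scaled within the NK-restricted genes, Itga1 was 2.32-fold lower (log2 -1.21 ± 0.20, edgeR, adjusted p = 0.000228). Itgam was at 2.23 and 2.63 CPM in female and 2.12 and 1.99 CPM in male co-culture, against 104 and 139.5 CPM in female and 127 and 146 CPM in male monoculture. It was 1.44-fold lower after the same scaling (log2 -0.53 ± 0.11, edgeR, adjusted p = 0.00134). Cxcr4, at 0.669 to 1.40 CPM in co-culture, did not pass the test (log2 -0.41 ± 0.21, adjusted p = 0.136), but did without the scaling step between libraries (log2 -0.62, adjusted p = 0.0183) and without co-culture male 5 (log2 -0.77, adjusted p = 0.0132). Cd27, at 1.34 to 2.65 CPM in co-culture, had a log2 difference of 0.06 ± 0.13 (adjusted p = 0.745). Without the scaling step 93 of the 550 genes were higher and 192 lower, against 120 and 116 with it, and the direction of Itga1, Itgam and Cxcr4 was the same in both.

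Other NK-restricted genes of the lists gave further values. In co-culture against monoculture Klrg1 rose by 0.98 ± 0.19 on the log2 scale and the growth factor receptor gene Kit by 1.68 ± 0.14. Cd69 fell by 0.70 ± 0.20 and Zfp683, which encodes the residency regulator Hobit, by 2.48 ± 0.63. Ccr2 fell by 0.23 ± 0.09, while Cxcr6 (-1.04 ± 0.56) did not pass the test. Of 6 homing receptors in the set 1 rose and 2 fell. Of 4 integrins 1 rose (Itgal, 0.34 ± 0.06) and 1 fell (Itgad, -1.33 ± 0.34), and of 6 surface markers 3 rose and 1 fell. The share called over all 550 genes was 42.9%.

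The other 5 receptors were not NK-restricted, and their co-culture levels were set beside the sum expected from monoculture at the NK share plus cultured Panc02 at the rest. These ratios have no test. Ccr7 was at 1.72 and 2.09 CPM in female and 1.46 and 0.701 CPM in male co-culture, which was 5.07, 5.61, 5.61 and 2.82 times the expected level. Cx3cr1 was at 0.669 and 0.427 CPM in female and 0.437 and 0.350 CPM in male co-culture, from 15 to 30 reads each, or 3.38, 2.03, 1.97 and 1.66 times the expected level. Both stood above the expected sum in all 4 libraries. Of the expected Cx3cr1, 0.138 to 0.140 CPM came from cultured Panc02 and 0.0592 to 0.0825 CPM from monoculture. For Ccr7 these were 0.177 to 0.179 and 0.0691 to 0.197 CPM, and which cells held the excess was not tested. Summed dendritic cell markers were at 9.64 to 10.6 CPM in co-culture and 8.55 to 9.91 CPM in cultured Panc02. Monocyte and macrophage markers other than Ccr2 summed to 88.8 to 93.6 CPM and 75.1 to 77.8 CPM. The part of such cells in these ratios was not tested. Itga2 was at 0.489 and 0.457 times the expected level in female and 0.662 and 0.581 times in male co-culture, and S1pr1 at 0.524 and 0.623 times in female and 0.695 and 0.900 times in male co-culture. S1pr5 was at 0.641 and 0.532 times in female and 0.623 and 1.23 times in male co-culture. Since its highest level in cultured Panc02 was 0.138% of monoculture, a looser limit of 0.2%, chosen after the values were seen, took it into a set of 604 genes. There S1pr5 was 0.736-fold the monoculture level (log2 -0.44 ± 0.15, edgeR, adjusted p = 0.0256).

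**Figure D3:**
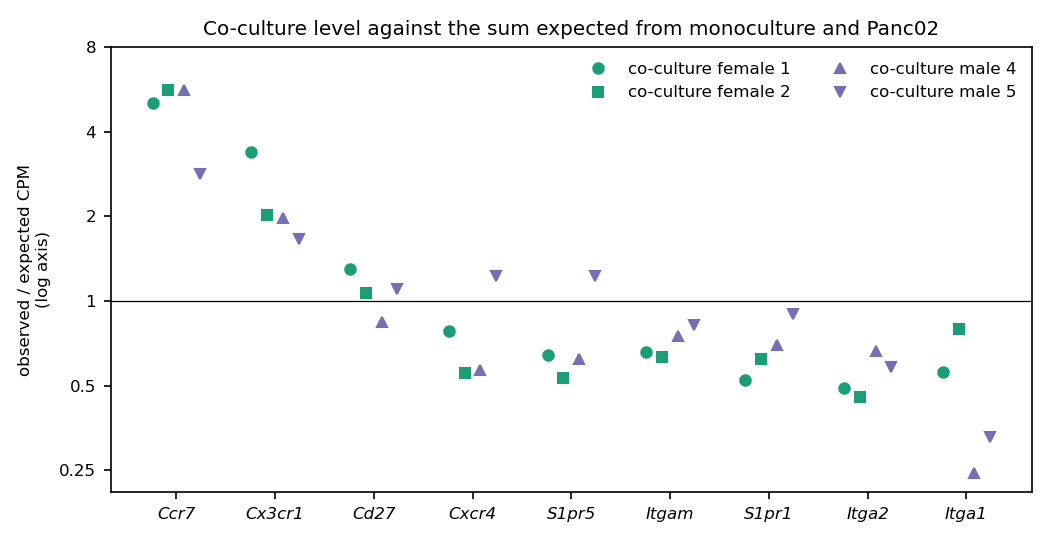
Observed over expected CPM of the 9 receptors in the 4 co-culture libraries, on a log axis, where the line at 1 marks the sum expected from monoculture NK cells and cultured Panc02. Ccr7 and Cx3cr1 lie above the line and Itga2, S1pr1, Itgam and Itga1 below it in all 4 libraries, and Itga1 is the gene whose male values lie farthest below its female ones.

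Between co-cultures with female and male NK cells Itga1 differed, where 2.73% of the 550 NK-restricted genes were called. Itga1 was 2.73-fold higher with female NK cells (log2 1.45 ± 0.33, edgeR, adjusted p = 0.0363). The male value rests on 13 and 20 reads, and the call ended without any one of co-culture female 2 (adjusted p = 0.0957), co-culture male 4 (0.122), co-culture male 5 (0.0946) or fresh male 5 (0.0511), and with all counts halved (0.057), a setting added after the values were seen. Per exon length Itga1 over Itgam was 0.165 and 0.244 in female and 0.0481 and 0.0594 in male co-culture, against 0.199 and 0.190 in female and 0.133 and 0.162 in male monoculture. Itgam (log2 -0.47 ± 0.17, adjusted p = 0.191), Cxcr4 (-0.31 ± 0.34, adjusted p = 0.71) and Cd27 (0.17 ± 0.20, adjusted p = 0.714) did not pass the test. Whether the step from monoculture to co-culture itself differed between the sexes was tested with a comparison added after the values were seen. It called 0% of the 550 genes by edgeR and none of the 4 receptors, with 57 genes at an unadjusted p under 0.05 and 1 gene called by DESeq2. Itga1 had the smallest p of the 4 (log2 1.22 ± 0.41, unadjusted p = 0.0101, adjusted p = 0.381).

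**Figure D4:**
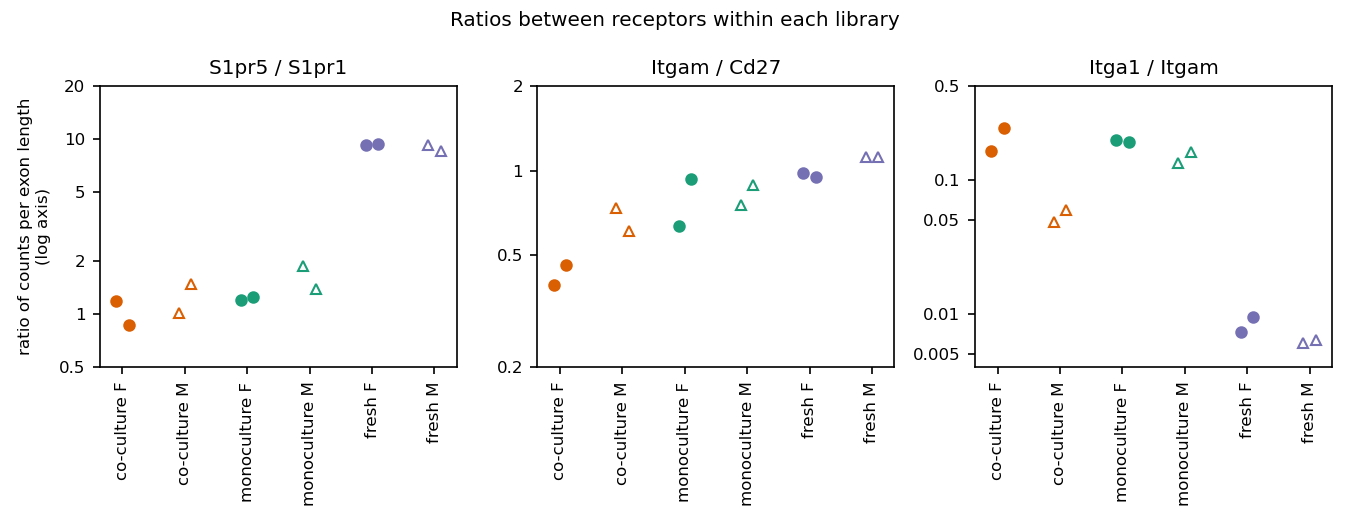
Ratios of counts per exon length between pairs of receptors within each library, on log axes, with filled circles for female and open triangles for male NK cells. S1pr5 over S1pr1 lies at 8.56 to 9.30 in fresh cells and below 2 in the others, Itgam over Cd27 lies highest in fresh cells, and Itga1 over Itgam is lower in male than in female co-culture.

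In Panc02 allografts most of the receptors were present in whole tumour RNA. Of the 8 receptors that passed the filter 7 were higher in allografts than in cultured Panc02, where 62.1% of 23264 genes were called, 9015 of them higher. Cx3cr1 had 96.9 to 173 CPM (median 125) in female and 71.1 to 121 CPM (median 86.3) in male hosts, against 0.213 and 0.0712 CPM in cultured Panc02 (log2 9.58 ± 0.52, edgeR, adjusted p = 2.34e-07). In female hosts its level was above that of every NK library. Cxcr4 averaged 46.7 CPM, Itgam 45.7, Itga1 15.4 and Cd27 4.68 CPM in allografts, at least 1386-fold, 1356-fold, 458-fold and 139-fold above the limit of 0.0337 CPM that 0 counts allow in cultured Panc02. S1pr1 was at 12.9 to 30.9 CPM in allografts, against 0.875 and 0.570 CPM in cultured Panc02, and Ccr7 at 8.46 to 19.5 CPM, against 0.128 and 0.237 CPM. Itga2 did not pass the test (log2 1.26 ± 0.76, adjusted p = 0.173). S1pr5 stood apart, with 0 to 19 reads and at most 0.457 CPM in each allograft, against 0.128 and 0 CPM in cultured Panc02, and did not pass the filter.

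The allografts held few NK transcripts beside many of other host cells. Summed NK markers were at 36.4 to 130.5 CPM, with none of 10 at 0, and the 10 monocyte and macrophage markers summed to 3537 to 7049 CPM, with Csf1r at 227 to 485 CPM and Adgre1 at up to 225 CPM. The 6 fibroblast markers summed to 3462 to 9426 CPM, against 0.760 to 1.22 CPM in cultured Panc02. The part of these cells in the receptor levels was not tested. The allograft counts came in another table than those of cultured Panc02, so growth in a host and any batch between the tables cannot be told apart. Of 13 ligand genes 10 were higher in allografts, where 62.1% of all genes were called. Cxcl12, the CXCR4 ligand, was at 26.6 to 112 CPM in allografts, against 0 and 0.0475 CPM in cultured Panc02. The CCR7 ligand gene Ccl21a was at 0.633 to 65.1 CPM in allografts and at 0 in cultured Panc02. The fractalkine gene Cx3cl1 was at 46.0 to 124 CPM in allografts and at 47.6 and 45.5 CPM in cultured Panc02 (log2 0.61 ± 0.34, adjusted p = 0.143). Cd70, the CD27 ligand, was at most 0.385 CPM in any allograft.

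Between female and male hosts edgeR called 0.0146% of 20560 genes and none of the 8 receptors tested. Of these receptors Cx3cr1 alone had an unadjusted p under 0.05, where 3087 of the 20560 genes did. DESeq2, which called 544 genes, called none of the receptors either. Cx3cr1 averaged 130.2 ± 38.5 CPM in female and 91.1 ± 21.2 CPM in male hosts (SD, n = 4 each; log2 0.55 ± 0.22, edgeR, adjusted p = 0.296). The ranges of all 8 receptors overlapped between the host sexes.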

How the data were processed

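Poly(A) RNA of 22 libraries in 9 groups was sequenced. The authors deposited whole-number read counts per gene, which are not normalised. The submitters' processing notes name HISAT2 2.2.1, featureCounts 2.0.6, SAMtools 1.19.2, cutadapt 4.4 and the build GRCm39. Per the file headers, exons of Ensembl 113 were counted with strand setting 2, mates were counted separately and multi-mapping reads were included. Gene lengths are those the authors deposited in a separate column (unit other).

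Symbols were matched to 51498 of 78298 gene IDs. CPM are counts over the library total and TPM use the deposited lengths. Differences were tested with edgeR 4.0.16 in R 4.3.3 (quasi-likelihood F-test, robust, TMM, filterByExpr, Benjamini-Hochberg over all genes tested, threshold 0.05), and DESeq2 1.42.0 was an alternative. The 12 NK and co-culture libraries were fitted together with a mean for each of 6 groups (21414 genes, leaving 6 residual degrees of freedom). The NK-restricted fit used the sums over its 550 genes as library sizes. Allografts were fitted alone and with cultured Panc02. SE is the log2 fold change over the square root of F. Alternatives covered scaling, the filter, halved counts, the libraries fitted, the replicate block and leaving out each library. The fits were checked on simulated counts. No 2 libraries of a group agreed within counting error (chi-square per gene 5.25 to 233). Floors cover counting error only, and 66.4% to 78.6% of genes with 1 to 20 counts had even counts, as both mates of a pair count.

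The 9 receptors, the lists of related genes and the comparisons were chosen with earlier results of these data known. Named genes are the 9 receptors, set partners, regulators and ligands, up to 4 genes of smallest p per list, and the 3 genes of nearest pattern per receptor (log2(CPM + 0.5)). Some genes that this rule names are not reported here.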

Additional observations from a re-analysis of the deposited data

Results flagged for a closer look

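The female minus male difference in the culture effect on Cx3cr1, -1.41 on the log2 scale, passed the interaction test. The receptor was at 2.46 and 1.80 CPM in female monoculture, against 81.6 and 80.8 CPM in fresh female cells, and at 3.34 and 4.64 CPM in male monoculture, against 62.9 and 57.7 CPM in fresh male cells. The monoculture values rest on 36, 65, 154 and 198 reads. Without monoculture female 2 the difference was -1.13 (edgeR, adjusted p = 0.0779). None of the 18 allograft groups checked, 2 for each receptor, held a library past the outlier limit, which chance would pass in about 1 in 20. In such small groups only a library very far off passes that limit. Short of it, Itga2 was at 19.9 CPM in allograft male 6, against 3.32 to 6.70 CPM in the other male hosts. S1pr5 was at 0.457 CPM, from 19 reads, in allograft male 7, against at most 0.118 CPM in the other male hosts.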

How the results depend on the processing

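Of the 64 receptor values tested, 23 passed the threshold under at least 1 setting and 41 under none. Among 380 alternatives of these 23 values, 361 kept direction and call, 7 lost the call, 12 gained it and 0 changed sign. Of the other 41, whose log2 values were at most 1.26 in size, 19 changed sign under some alternative, among them Cd27 in monoculture against fresh cells (-0.07 to 0.05).

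Receptors called between the sexes numbered 1 in fresh cells without the filter on low counts and by DESeq2 (Cxcr4), and 0 to 1 with single libraries left out. In monoculture they were 1 under the same settings (Cx3cr1), and 0 to 1 with libraries left out. For the culture effect they were 2 without the filter, and 0 to 1 with libraries left out. In co-culture they were 0 with halved counts, and 0 to 1 with libraries left out.

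Over all genes, leaving out libraries moved the fresh sex comparison between 569 genes (without fresh female 1) and 3421 (without monoculture female 2), with 1031 and 916 without fresh male 4 and 5. That in monoculture moved between 17 and 71 (without monoculture female 1), with 53 without monoculture female 2 and 43 without monoculture male 4. The culture interaction moved between 180 (without fresh male 5) and 935 (without fresh female 2), with 186 without fresh female 1, 347 without fresh male 4, 274 without monoculture male 5, and 355 and 352 without co-culture male 4 and 5. The sex comparison of NK-restricted genes in co-culture moved between 7 (without fresh male 5) and 21, with 9 without fresh female 1, fresh male 4, or monoculture male 4 or 5. The co-culture interaction moved between 0 and 3 genes (without co-culture male 4) and the allograft host comparison between 0 (without male 5, 6 or 8) and 4. DESeq2 called 75 genes between the sexes in monoculture, 1452 for the culture interaction, 37 in co-culture, 1 for the co-culture interaction and 544 between allograft hosts. Without the filter 207 genes were called between the sexes in monoculture and 14 between allograft hosts. With the fresh and monoculture libraries only, 15 genes were called between the sexes in monoculture and 323 for the interaction. The stricter restriction called 147 of 299 genes between co-culture and monoculture and 8 between the sexes, and halved counts 7, where the smaller set holds fewer genes. Median-ratio scaling put the culture interaction at 417 genes higher and 265 lower, against 215 and 331 with TMM scaling. Except for the smaller sets, the cause was not tested.

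The labels do not say whether a sample number marks the same animal, and the same-numbered deviations correlated at -0.011 to 0.303, so the numbers were not taken to pair the samples. With the number as a replicate block 2 receptors and 338 genes were called for the culture interaction, Cxcr4 among them (log2 0.65, adjusted p = 0.0455), and Cxcr4 passed in co-culture against monoculture (log2 -0.42, adjusted p = 0.0351). The block called 8 receptors in monoculture against fresh cells. The depth of co-culture, with 13 to 124 reads of an NK-restricted receptor per library, limits every value there.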
